A study of Homo sapiens with 12 samples.

Results

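The proteasome subunit genes were taken as 37 listed genes, PSMA1 to PSMA7, PSMB1 to PSMB10, PSMC1 to PSMC6 and PSMD1 to PSMD14, of the 29883 coding and long non-coding genes that had a strand and at least 1 bin. All 37 were found in the RefSeq annotation of GRCh38.p14, and each was measured by summing the deposited 200 bp bins over its span, on its own strand for RNA. All libraries came from K562 cells, an established line derived from a chronic myelogenous leukaemia, and the cells of all 4 RNA groups had been given 500 µM 4-thiouridine (4sU, a uridine analogue that marks newly made RNA) for 5 min. TT-Seq RNA was sheared by sonication and then 4sU-purified, 4sU-Seq RNA was purified without shearing, Total RNA-Frag-Seq RNA was sheared and not purified, and Total RNA-Seq RNA was neither. RNA polymerase II was profiled after 7.5 min of crosslinking in 1% formaldehyde. The antibodies were 3E10, against the serine 2 phosphorylated form (S2P ChIP), and N-20 (N20 ChIP). Each of the 6 groups held 2 libraries.

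The proteasome is the large protease that degrades proteins tagged with ubiquitin. Its barrel-shaped core is built of stacked rings of alpha subunits, which gate the entrance, and beta subunits, some of which carry the proteolytic sites. A regulatory cap recognises, unfolds and deubiquitinates substrates, and subunit genes are known to be induced together through antioxidant response elements in their promoters, bound by the transcription factor NFE2L1, when proteasome activity falls.

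Of the 37 genes, 32 had a promoter sequence in RefSeq (250 bases before to 50 after the start). PSMB1, PSMB6, PSMB7, PSMA7 and PSMD4 are named only. The core of the antioxidant response element was searched as TGACNNNGC on both strands, with overlaps to other motifs kept. For each motif a gene counted if any of its listed promoters matched. The core was present in 10 of the 32 (31.2%), against 2840 of 15843 genes with a promoter (17.9%). By promoter it was in 10 of 39, against 3067 of 22199 (13.8%). The 10 genes were PSMA4, PSMB3, PSMB9, PSMC4, PSMC5, PSMD1, PSMD3, PSMD5, PSMD9 and PSMD12, so that alpha, beta, ATPase and other cap genes were all represented. PSMA4 and PSMC5, with 3 and 2 listed promoters, did not match in every one. The CCAAT box (CCAAT) was present in 17 of the 32 (53.1%, against 42.1% of genes), the GC box (GGGCGG) in 21 (65.6%, against 64.3%) and the TATA box (TATAAA) in 4 (12.5%, against 12.4%). Matches are letters in these windows and say nothing about binding. The sequences below are RefSeq promoters of GRCh38.p14, read along the strand of the gene. PSMD5, PSMD12, PSMD3, PSMD1 and PSMC4 are shown because they hold the element core, which is in capitals, and PSMD14, without it, because it had the highest N20 ChIP density at its start relative to the gene body.
PSMD5, chr9:120842873-120843172, minus strand: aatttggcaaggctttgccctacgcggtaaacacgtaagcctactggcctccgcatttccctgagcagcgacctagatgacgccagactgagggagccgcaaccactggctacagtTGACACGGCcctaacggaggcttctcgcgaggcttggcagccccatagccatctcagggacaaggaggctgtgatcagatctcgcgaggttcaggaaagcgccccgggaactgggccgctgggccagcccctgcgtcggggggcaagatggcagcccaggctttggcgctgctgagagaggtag
PSMD12, chr17:67366528-67366827, minus strand: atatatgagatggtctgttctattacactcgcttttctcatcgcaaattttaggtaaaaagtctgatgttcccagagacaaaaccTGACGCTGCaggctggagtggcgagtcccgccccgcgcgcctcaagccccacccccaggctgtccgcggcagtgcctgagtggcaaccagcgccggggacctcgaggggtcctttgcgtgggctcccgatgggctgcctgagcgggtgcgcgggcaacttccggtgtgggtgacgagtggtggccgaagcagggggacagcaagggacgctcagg
PSMD3, chr17:39980557-39980856, plus strand: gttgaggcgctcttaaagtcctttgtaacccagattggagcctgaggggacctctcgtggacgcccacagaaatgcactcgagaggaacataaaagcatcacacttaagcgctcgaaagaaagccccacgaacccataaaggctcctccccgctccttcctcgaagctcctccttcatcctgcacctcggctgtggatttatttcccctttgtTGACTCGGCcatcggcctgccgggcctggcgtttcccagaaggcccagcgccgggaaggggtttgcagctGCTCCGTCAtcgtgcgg
PSMD1, chr2:231056617-231056916, plus strand: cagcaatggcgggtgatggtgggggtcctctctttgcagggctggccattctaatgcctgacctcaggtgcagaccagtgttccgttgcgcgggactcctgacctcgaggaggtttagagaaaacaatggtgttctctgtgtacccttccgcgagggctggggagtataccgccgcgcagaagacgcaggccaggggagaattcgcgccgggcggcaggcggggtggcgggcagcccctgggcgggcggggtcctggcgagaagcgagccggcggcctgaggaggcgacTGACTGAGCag
PSMC4, chr19:39970915-39971214, plus strand: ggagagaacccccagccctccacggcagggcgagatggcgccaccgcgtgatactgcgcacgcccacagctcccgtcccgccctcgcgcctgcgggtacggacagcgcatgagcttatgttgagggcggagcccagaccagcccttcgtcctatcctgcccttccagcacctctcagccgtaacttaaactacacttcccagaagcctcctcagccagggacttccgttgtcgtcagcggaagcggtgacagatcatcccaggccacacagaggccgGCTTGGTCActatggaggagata
PSMD14, chr2:161308175-161308474, plus strand: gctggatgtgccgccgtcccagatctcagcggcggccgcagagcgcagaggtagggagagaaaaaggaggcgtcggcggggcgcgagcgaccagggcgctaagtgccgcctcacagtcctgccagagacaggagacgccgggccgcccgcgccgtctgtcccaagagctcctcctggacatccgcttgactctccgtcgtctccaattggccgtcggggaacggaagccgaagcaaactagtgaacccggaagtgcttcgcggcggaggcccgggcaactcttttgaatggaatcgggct

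The binned counts summed to between 25909021 and 71317148 per RNA library and between 12598494 and 73660126 per ChIP library. K562 markers were detected, among them GATA1 at 84.8 to 120 and TFRC at 247 to 435 CPM, counts scaled to the library's total over gene spans. KLF1 was at 18.8 to 55.7 CPM, and HBE1, the lowest of these markers, at 3.79 to 22.7 CPM. CPM per kb and per bin below use the same scale. The CPM of genes in the comparisons are instead scaled by edgeR's TMM factors over the genes that passed the filter. Of the markers of other cell types, CD3D was at 1.13 to 5.96, LYZ at 3.51 to 16.5 and EPCAM at 20.7 to 34.2 CPM, CD79A, CD14 and ALB were each under 1 CPM, and KRT5 was at 0 in all 8 RNA libraries. CD3E, CD4, MS4A1, COL1A1 and COL3A1 were not analysed here, for want of a strand. Each library is a bulk of 1 line, in which fewer transcribing cells and less RNA per cell cannot be told apart. Values are shares of a library, with no spike-in used here to set an absolute scale. The design text calls the RNA duplicates biological; for the ChIP libraries no label says so, and p-values then cover the spread between these libraries, which may be technical.

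Proteasome subunit genes had high RNA levels per length relative to other coding genes. In CPM per kb of span, the median of the 37 was 2.86 in TT-Seq and 3.16 in 4sU-Seq. It was 3.89 in Total RNA-Frag-Seq and 4.08 in Total RNA-Seq. Medians over 12297 coding genes with at least 10 counts in each RNA library were 1.17, 1.28, 1.26 and 1.31 in the same order. The members were above that median in 34 of 37 cases in TT-Seq and in 33 of 37 in each other protocol. Spans include introns, and 13 of the 37 were under 10 kb, against 2777 of 13576 coding genes tested. The part of span length in these levels was not tested. The highest level in every protocol was that of PSMB4, a beta subunit without a catalytic site, at 10.7 ± 0.88 in TT-Seq, 29.4 ± 3.60 in 4sU-Seq, 27.6 ± 7.82 in Total RNA-Frag-Seq, and 34.6 ± 0.80 in Total RNA-Seq (SD, n = 2). In TT-Seq it did not differ beyond this spread from PSMD7, a lid subunit of the cap at 10.4 ± 0.39 on the same scale, whereas PSMD5, a chaperone of cap assembly and next in that order, was at 5.70 ± 0.14. ChIP levels per length lay nearer to those of the same coding genes. The members' median was 1.05 against 0.98 in S2P ChIP and 1.29 against 1.12 in N20 ChIP, with 22 of 37 above in each.

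**Figure D1:**
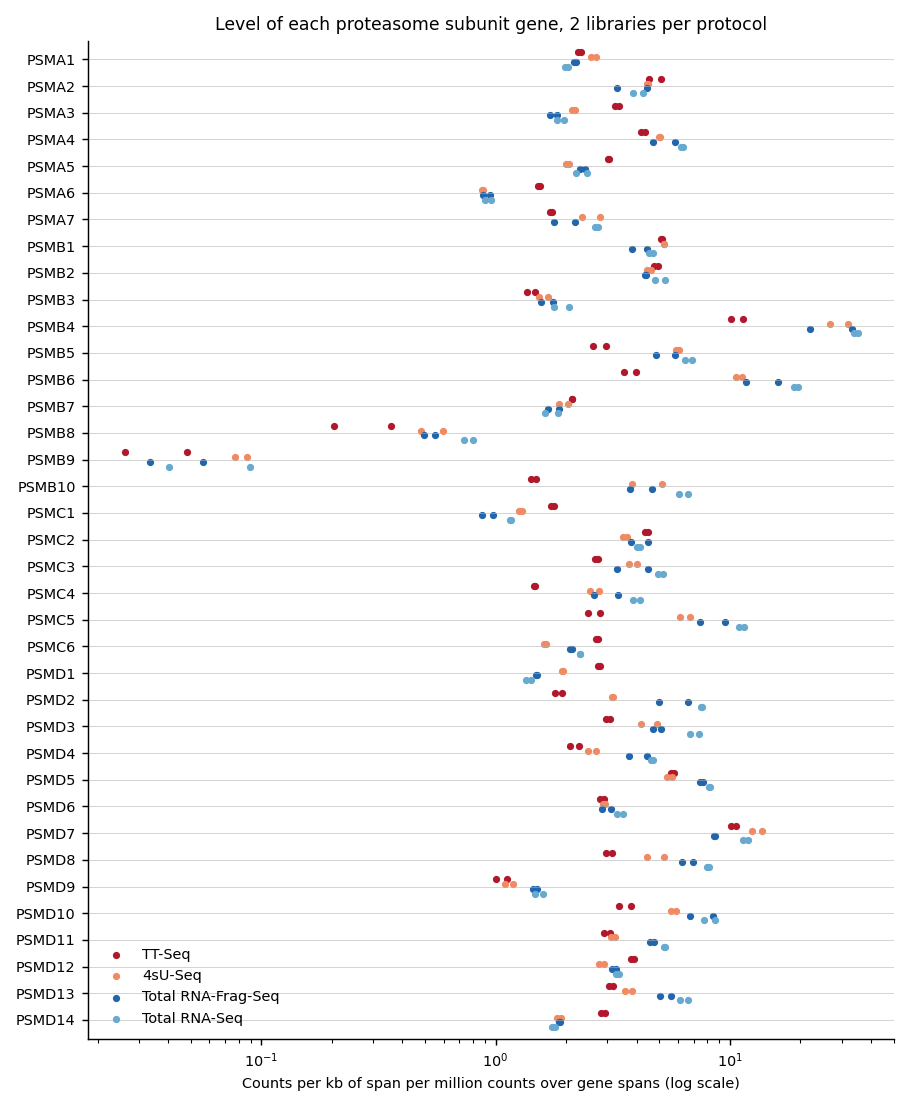
Level of each of the 37 genes, in CPM per kb of span on a log axis, with 1 point per library and 2 libraries per protocol. PSMB8 and PSMB9 lie at the left in all 4 protocols, PSMB4 at the right.

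Among the active-site genes, PSMB8 and PSMB9 stood lowest in RNA. PSMB5, PSMB6 and PSMB7 encode the catalytic subunits of the constitutive core, and PSMB8, PSMB9 and PSMB10 encode those that replace them in the interferon-inducible immunoproteasome. PSMB9 had 16 and 9 counts in TT-Seq, 22 and 17 in 4sU-Seq, 7 and 9 in Total RNA-Frag-Seq, with 13 and 5 in Total RNA-Seq, the lowest of the 37 in every protocol. PSMB8 had 46 and 83, 83 and 89, 70 and 60, and 79 and 62 counts in the same libraries. PSMB9 and PSMB8 ranked 37th and 36th in all 4 protocols, while PSMB10 was at 1.45 ± 0.043 in TT-Seq and 6.37 ± 0.39 in Total RNA-Seq on the same per-length scale. The constitutive PSMB6 was at 3.74 ± 0.31 in TT-Seq and 19.2 ± 0.53 in Total RNA-Seq, and PSMB7 at 2.11 ± 0.0038 in TT-Seq and 1.73 ± 0.15 in Total RNA-Seq (SD, n = 2). The TT-Seq level was thus below the Total RNA-Seq level for PSMB6 and PSMB10, and not for PSMB7. In N20 ChIP, PSMB8 and PSMB9 were at 1.50 and 1.18 per length, against a median of 1.12 over coding genes. In S2P ChIP they were at 1.37 and 0.80, against 0.98.

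TT-Seq was first set against Total RNA-Frag-Seq, which compares purified with unpurified RNA, both sheared, and so the share each gene has of newly made RNA with its share of all RNA. The 37 genes split: 13 were higher and 18 lower in TT-Seq, where 33.2% of all 18521 genes tested were called higher and 33.7% lower (edgeR's quasi-likelihood test, Benjamini-Hochberg adjusted p under 0.05). The libraries of the groups did not overlap for 14 members above and 19 below, against 41.7% and 42.8% of all genes. The members' median log2 fold change was -0.20, against -0.02 over all genes and -0.10 over coding genes. All 37 passed the filter on low counts. Among the genes described next, the short spans are PSMB6 at chr17:4796164-4798495, PSMC5 at chr17:63827431-63832019 and PSMD2 at chr3:184299241-184309050, all on the plus strand, and PSMB10 at chr16:67934506-67936850 on the minus strand. The longer spans, all on the plus strand, are PSMC1 at chr14:90256553-90275429, PSMA3 at chr14:58244843-58272004, PSMD1 at chr2:231056867-231172827 and PSMA6 at chr14:35278558-35317493. These are GRCh38.p14 coordinates of whole genes, exons and introns together.

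The genes lowest in TT-Seq here were short ones from several layers of the particle. PSMB6, the caspase-like catalytic subunit, had 9.28 and 8.24 CPM in TT-Seq, against 36.8 and 26.8 CPM in Total RNA-Frag-Seq. Its log2 fold change was -1.87 ± 0.13 (SE; edgeR's quasi-likelihood test, Benjamini-Hochberg adjusted p = 4.08e-08). PSMC5, an ATPase of the cap's unfolding ring, had 13.6 and 12.2 CPM in TT-Seq, against 45.5 and 35.6 CPM in Total RNA-Frag-Seq. For both genes every TT-Seq library lay far below every Total RNA-Frag-Seq library. The cap scaffold gene PSMD2 had 20.1 and 18.7 CPM in TT-Seq, against 67.6 and 50.6 CPM in Total RNA-Frag-Seq (change in log2 of -1.61 ± 0.11). PSMB10 had 3.48 and 3.33 CPM in TT-Seq, against 10.6 and 8.60 CPM in Total RNA-Frag-Seq (change in log2 of -1.51 ± 0.15). The immunoproteasome gene was thus also among the 4 lowest. Of the other active-site genes, PSMB5, the chymotrypsin-like subunit, was lower (log2 -0.91 ± 0.095), PSMB8 was lower (-0.85 ± 0.24), and PSMB9 was not called (-0.20 ± 0.55). PSMB7, the trypsin-like subunit, was higher (0.29 ± 0.076), but its direction turned with the authors' transcriptional unit in place of the gene span (-0.073).

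The genes highest in TT-Seq came from the alpha ring and the cap. PSMC1, a cap ATPase, had 35.7 and 34.5 CPM in TT-Seq, against 18.99 and 17.1 CPM in Total RNA-Frag-Seq (change in log2 of 0.95 ± 0.082). PSMA3, an alpha subunit, had 97.0 and 93.3 CPM in TT-Seq, against 47.9 and 51.6 CPM in Total RNA-Frag-Seq (change in log2 of 0.94 ± 0.070). PSMD1, a large scaffold of the cap, had 344 and 338 CPM in TT-Seq, against 179 and 182 CPM in Total RNA-Frag-Seq (change in log2 of 0.92 ± 0.056). In these genes the groups did not overlap, and the fold was 1.94 in PSMC1, 1.92 in PSMA3 and 1.89 in PSMD1. PSMA6, another alpha subunit, had 63.7 and 62.4 CPM in TT-Seq, against 38.1 and 35.6 CPM in Total RNA-Frag-Seq (change in log2 of 0.77 ± 0.072), but its span is shared in full with the read-through gene PRORP-PSMA6.

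By role, 4 alpha genes were higher and 1, PSMA4, lower, of 7. Of the beta genes without a catalytic site 2 were higher and 1 lower of 4, and of the cap ATPases 2 higher and 3 lower of 6. Of the cap's non-ATPase genes 4 were higher and 6 lower of 11. The chaperone genes PSMD5, PSMD9 and PSMD10, whose products assemble the base of the cap and then leave it, were all lower, 3 of 3, with log2 -0.37 ± 0.060, -0.44 ± 0.079 and -1.06 ± 0.10.

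**Figure D2:**
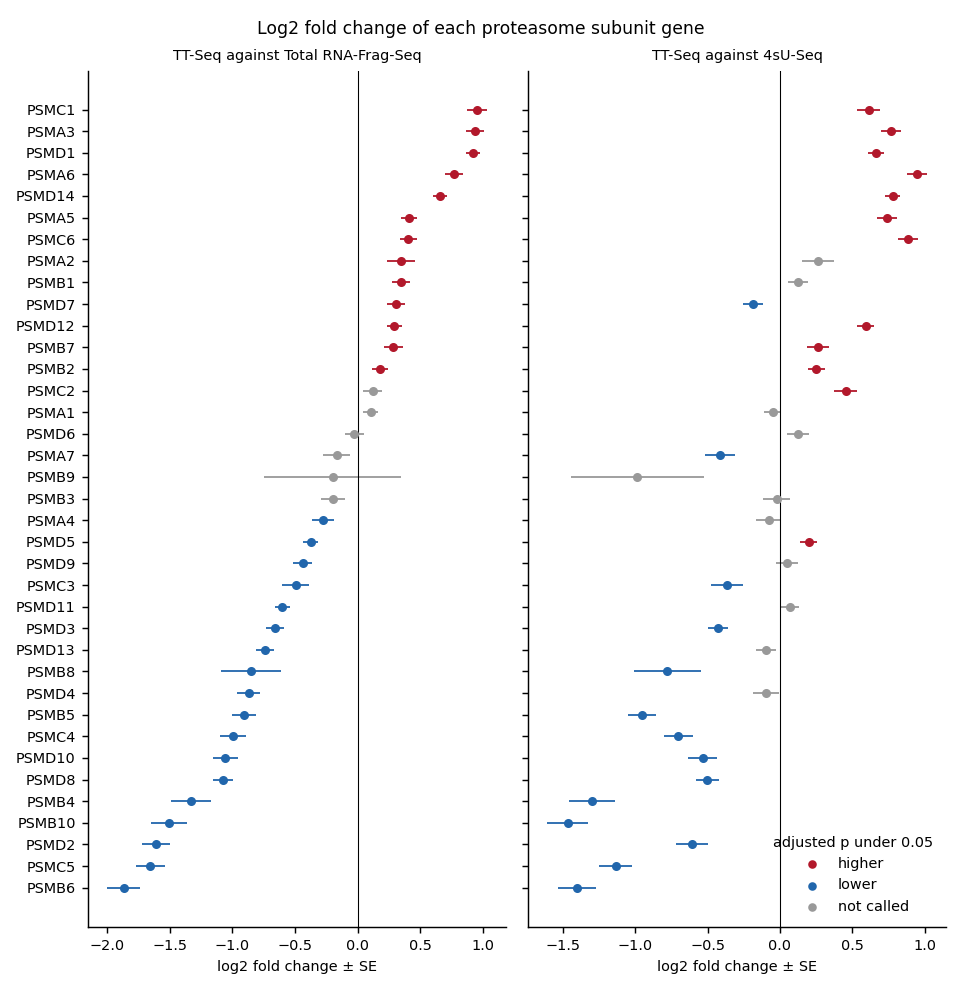
Log2 fold change with its standard error for each of the 37 genes, TT-Seq over Total RNA-Frag-Seq on the left and TT-Seq against 4sU-Seq on the right, in the order of the left panel. The lowest left values are those of PSMB6 (-1.87) and PSMC5 (-1.66), the highest that of PSMC1 (0.95).

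Without shearing, in 4sU-Seq against Total RNA-Seq, 5 genes were higher and 21 lower, where 28.3% of all genes tested were higher and 28% lower (edgeR's quasi-likelihood test, Benjamini-Hochberg adjusted p under 0.05). The groups did not overlap for 9 members above and 26 below, against 39.5% and 37.7% of all genes. The median of the 37 was -0.23 on the log2 scale, against 0.01 over all genes and -0.09 over coding genes. Over 13576 coding genes 23.6% were higher and 35.0% lower. The cap and its assembly, with 6 ATPase, 11 non-ATPase and 3 chaperone genes of the 37, gave 15 of the 21 lower ones. PSMD2 was the lowest, with 30.1 and 29.1 CPM in 4sU-Seq, against 70.1 and 70.7 CPM in Total RNA-Seq (log2 -1.25 ± 0.11). Next came PSMD4, a ubiquitin receptor (-0.84 ± 0.093), PSMB6 (-0.80 ± 0.12) and PSMC5 (-0.79 ± 0.11). In this comparison 8 of the 11 non-ATPase cap genes and 3 of the 3 assembly chaperones were lower, and 2 of the 11 higher.

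The highest in 4sU-Seq were PSMD1, with 222 and 208 CPM in 4sU-Seq, against 155 and 150 CPM in Total RNA-Seq (log2 0.49 ± 0.056), and the alpha gene PSMA1 (0.40 ± 0.060). The value of PSMA1 depends on where the gene is taken to begin. Its RefSeq promoter start lies 123 kb inside its 139 kb span, and the stretch before it held 74.7% and 71.0% of the gene's counts in 4sU-Seq, against 60.8% and 57.9% in Total RNA-Seq. Counted from the promoter start, PSMA1 was not called (log2 -0.19). Of the active-site genes PSMB10 was lower (-0.50 ± 0.13), and PSMB5 (-0.15 ± 0.094), PSMB7 (0.19 ± 0.078), PSMB8 (-0.51 ± 0.23) and PSMB9 (0.32 ± 0.50) were not called. PSMA3 was higher by log2 0.19 ± 0.072, a call that ended under 7 of 15 alternatives, among them DESeq2's size factors and leaving out the first Total RNA-Seq library. The number called higher was 2 without the first 4sU-Seq library and 3 without either Total RNA-Seq library.

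Among the purified libraries, TT-Seq against 4sU-Seq asks what shearing before purification changes. Of the 37 genes 12 were higher and 14 lower in TT-Seq, where 28.8% of all genes tested were higher and 28.9% lower (edgeR's quasi-likelihood test, Benjamini-Hochberg adjusted p under 0.05). The groups did not overlap for 15 members above and 17 below, against 38.9% and 39.5% of all genes. Without TMM scaling, which here moves the median of all genes to -0.18 from -0.03 on the log2 scale, the split was 9 higher and 18 lower. The alpha genes PSMA6, at 63.7 and 62.4 CPM in TT-Seq, against 33.4 and 32.0 CPM in 4sU-Seq (log2 0.95 ± 0.072), and PSMA3 (0.77 ± 0.069) were among the 4 highest. The others were the cap ATPase gene PSMC6, at 62.6 and 60.8 CPM in TT-Seq, against 33.9 and 32.9 CPM in 4sU-Seq (0.89 ± 0.068), and PSMD14, the deubiquitinating enzyme of the cap's lid (0.78 ± 0.053). In each of these genes both TT-Seq libraries were above both 4sU-Seq libraries.

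The 4 lowest were PSMB10, with 3.48 and 3.33 CPM in TT-Seq, against 8.26 and 10.6 CPM in 4sU-Seq (log2 -1.47 ± 0.14), PSMB6 (-1.40 ± 0.13), PSMB4 (-1.30 ± 0.16) and PSMC5 (-1.14 ± 0.11). PSMB5 (-0.95 ± 0.094) and PSMB8 (-0.78 ± 0.23) were also lower, PSMB7 was higher (0.26 ± 0.076), and PSMB9 was not called (-0.99 ± 0.46). The 3 genes with the shortest spans, PSMB6, PSMB10 and PSMB4, were thus the 3 lowest.

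This order followed span length. Over the 37 genes, Spearman's rho between span and the log2 fold change of TT-Seq against 4sU-Seq was 0.843, against 0.375 over 13576 coding genes. Of the 13 members under 10 kb, 0 were higher and 12 lower, with a median of -0.78, and of the 14 members over 20 kb, 11 were higher and 0 lower, with a median of 0.52. Of 2777 coding genes under 10 kb, 6.01% were higher and 65.5% lower, with a median of -0.69. Of 8616 coding genes over 20 kb, 43.9% were higher and 18.2% lower, with a median of 0.15. By their medians the short members thus sat near other short genes, and the long members above other long genes. The share called was larger among the members in both. It was 12 of 13 short members lower against 65.5%, and 11 of 14 long members higher against 43.9%. With TT-Seq over Total RNA-Frag-Seq the rho was 0.699 over the members, against 0.406 over coding genes. These are descriptions over genes that share libraries and depth, and exons and introns are counted together. The part of intron content in the relation was not tested.

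**Figure D3:**
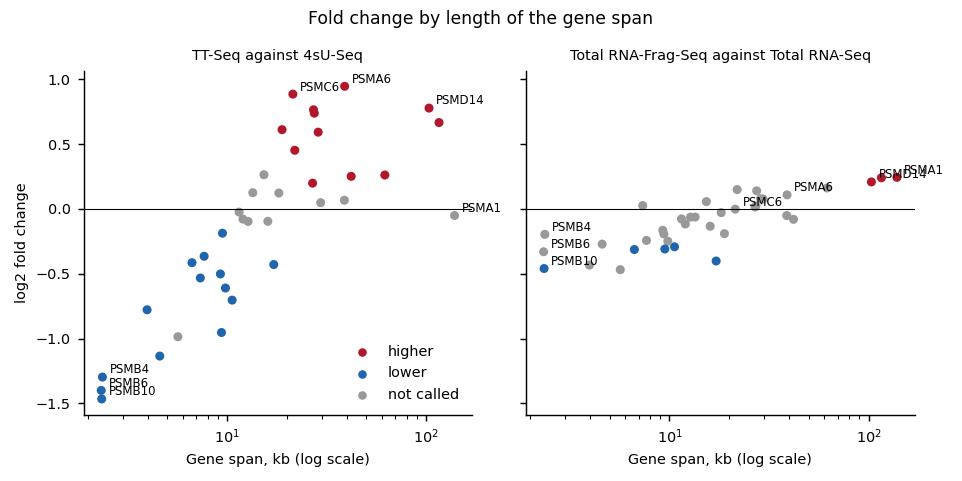
Log2 fold change of the 37 genes against the length of their span in kb on a log axis, for TT-Seq against 4sU-Seq and for Total RNA-Frag-Seq over Total RNA-Seq. Every member under 10 kb lies below 0 in the left panel, and the 3 shortest are lowest.

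Shearing of unpurified RNA, Total RNA-Frag-Seq over Total RNA-Seq, moved few of these genes: 3 were higher and 5 lower, where 18% of all genes tested were higher and 10.8% lower (edgeR's quasi-likelihood test, Benjamini-Hochberg adjusted p under 0.05). The groups did not overlap for 8 members above and 14 below, against 34.2% and 31.6% of all genes. The higher ones were the 3 longest spans, PSMA1 (log2 0.24 ± 0.061), PSMD1 (0.24 ± 0.057) and PSMD14 (0.21 ± 0.054). The lower ones were PSMB10 (-0.46 ± 0.14), PSMD3, a lid subunit (-0.40 ± 0.072), PSMA7, an alpha subunit (-0.31 ± 0.11), PSMD7 (-0.31 ± 0.073) and PSMC4, a cap ATPase (-0.29 ± 0.10). PSMB5 (-0.19 ± 0.095), PSMB6 (-0.33 ± 0.12), PSMB7 (0.16 ± 0.078), PSMB8 (-0.43 ± 0.24) and PSMB9 (-0.47 ± 0.58) were not called. The rho with span was 0.822 over the members, against 0.490 over coding genes. This comparison rests on small changes: without TMM scaling, which moves the median of all genes to -0.14 from -0.01, the split was 0 higher and 15 lower. The number lower was 12 without the first Total RNA-Frag-Seq library and 2 without any other single library of the comparison. The number higher was 1 without either Total RNA-Seq library, and PSMA1 was not called when counted from its promoter start (log2 -0.01).

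The effect of purification itself differed between sheared and unsheared RNA for 19 of the 37 genes. In the interaction term, TT-Seq over Total RNA-Frag-Seq relative to 4sU-Seq over Total RNA-Seq, 10 were higher and 9 lower, where 18.4% of all genes tested were higher, 23.2% lower and 41.6% either (edgeR's quasi-likelihood test, Benjamini-Hochberg adjusted p under 0.05). The lowest were PSMB4 (log2 -1.10 ± 0.22), PSMB6 (-1.07 ± 0.18), PSMB10 (-1.01 ± 0.20) and PSMC5 (-0.86 ± 0.16), and PSMB5 was lower too (-0.76 ± 0.13). The highest were PSMC6 (0.89 ± 0.097), PSMA6 (0.84 ± 0.10), PSMC1 (0.80 ± 0.12) and PSMA3 (0.74 ± 0.10). PSMB4 was lowest: without shearing it was at 63.3 and 71.5 CPM in 4sU-Seq, against 79.4 and 78.3 CPM in Total RNA-Seq, which was not called (-0.23 ± 0.16). After shearing it was at 29.0 and 25.8 CPM in TT-Seq, against 82.2 and 54.9 CPM in Total RNA-Frag-Seq (change in log2 of -1.33 ± 0.16). PSMB7 (0.10 ± 0.11), PSMB8 (-0.34 ± 0.33) and PSMB9 (-0.52 ± 0.74) were not called. The calls of these 9 genes held under every alternative in which each was measured.

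Counts were spread along the genes differently by protocol. The log2 ratio of counts 5' of the span's midpoint to counts 3' of it had a median over 35 members of -0.40 in TT-Seq, -0.63 in 4sU-Seq, -0.86 in Total RNA-Frag-Seq, with -1.03 in Total RNA-Seq. PSMB8 and PSMB9 were left out for having under 50 counts in a library. Medians over 11002 coding genes were 0.06, -0.23, -0.57 and -0.69 in the same order, so the members lay further to the 3' side in each protocol. Members and coding genes alike were nearest to an even split in TT-Seq. PSMB6 leaned furthest, at -2.66 in TT-Seq, -3.92 in 4sU-Seq, -4.90 in Total RNA-Frag-Seq, and then -5.15 in Total RNA-Seq, followed in TT-Seq by PSMC5 at -1.96. PSMD11, a lid subunit gene, was at 0.23 in TT-Seq and at -0.76, -1.46 and -1.65 in the other 3.

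Opposite-strand counts over the spans ranged widely. In TT-Seq they made up 9.83% to 66.0% of all counts in 9 members (PSMA3, PSMA7, PSMB7, PSMB10, PSMC1, PSMC4, PSMC5, PSMD5 and PSMD6) and at most 6.12% in the other 28. Over the span of PSMB10, 64.8% and 66.0% of all counts in TT-Seq lay on the opposite strand, where no gene is annotated within the span, with 48.9% and 43.3% in 4sU-Seq, 27.2% and 32.4% in Total RNA-Frag-Seq, with 20.4% and 22.1% in Total RNA-Seq. The same share in PSMC5, which overlaps FTSJ3 on the other strand, was 19.3% and 20.7% in TT-Seq, against 1.33% and 2.01% in Total RNA-Frag-Seq. In both genes the opposite strand thus held most in TT-Seq. PSMA3, which overlaps the long non-coding PSMA3-AS1, went the other way, with 24.9% and 22.5% in TT-Seq, against 46.2% and 42.0% in Total RNA-Frag-Seq. PSMD6 had 22.4% and 19.95% in TT-Seq, against 12.1% and 13.8% in Total RNA-Frag-Seq, and PSMD5 was nearly even, with 17.7% and 16.7% in TT-Seq, against 17.9% and 17.1% in the unpurified sheared RNA.

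N20 ChIP signal was more concentrated at the starts of these genes than at the median coding gene. The ChIP measure was the density of counts from 200 bp before to 400 bp after the start over the density in the rest of the gene, given where the rest held at least 20 counts. In N20 ChIP its median was 24.8 over 34 members and 18.4 over 37. Over 15481 and 16071 coding genes it was 6.91 and 8.00, and 28 members were above that median in each library. Those coding genes were not chosen by RNA level, and only 12297 coding genes had at least 10 counts in each RNA library. The part of RNA level in the difference was not tested. In S2P ChIP the members' medians were 3.83 and 8.75, against 3.04 and 5.17 over coding genes. The S2P order depended on the window. With 500 bp before to 1000 bp after the start, the members' medians in S2P ChIP were 2.00 and 4.45, against 2.52 and 4.18 over coding genes, so the order turned in the first library. In N20 ChIP they were then 11.7 and 9.38, against 5.33 and 5.89 over coding genes.

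The measure ranged widely between genes. PSMD14 was highest, at 186 and 145 in N20 ChIP, from 206 and 270 counts near the start against 190 and 320 in a body of about 103 kb, and at 22.0 and 41.4 in S2P ChIP. Its promoter is the last of the sequences above. PSMA4 followed with 81.3 and 49.3 in N20 ChIP, and PSMD5 with 72.7 and 57.4, while PSMD6, a lid subunit gene with too few body counts in the first library, had 50.5 in the second. At the other end were PSMB10, at 0.641 and 0.778 in N20 ChIP, and PSMB5, at 2.20 and 1.25. Of the 37, only PSMB10 thus had more N20 signal per bin in its body than at its start.

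**Figure D4:**
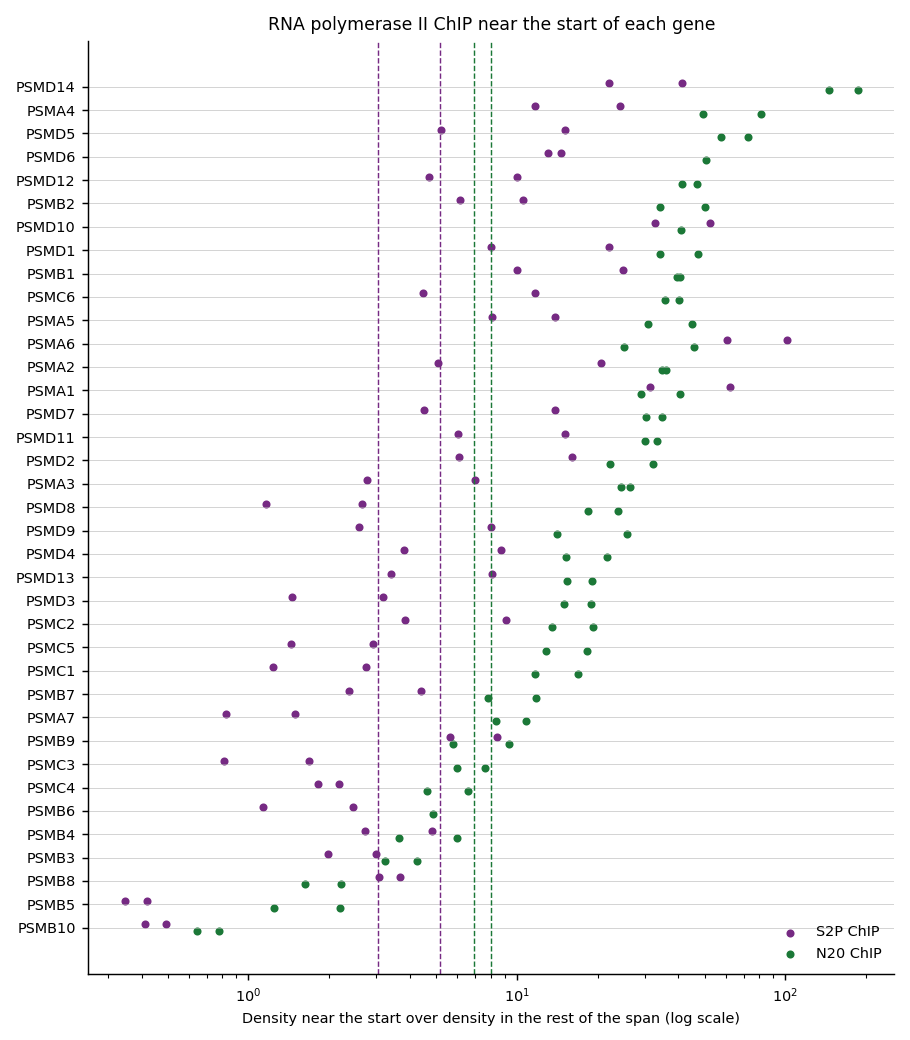
Density of ChIP counts near the start over the density in the rest of the gene for each of the 37 genes on a log axis, with 1 point per library and members in the order of N20 ChIP. Dashed lines are the medians over coding genes in each library (3.04 and 5.17 in S2P ChIP, 6.91 and 8.00 in N20 ChIP).

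S2P ChIP against N20 ChIP over whole spans asks where the elongating form is enriched relative to the N-20 signal. Of the 37 genes 17 were higher and 1 lower in S2P, where 23.3% of all 28204 genes tested were higher and 20.2% lower (edgeR's quasi-likelihood test, Benjamini-Hochberg adjusted p under 0.05). The groups did not overlap for 23 members above and 5 below, against 36.2% and 37.2% of all genes. The median of the 37 was 0.42 on the log2 scale, against -0.01 over all genes tested and 0.16 over coding genes. The split depends on scaling. Without TMM, which moves the median of all genes to -0.51, it was 7 higher and 8 lower, while the members' median of -0.09 lay as far above that of all genes as before. The number higher was 8 without the first N20 library and 9 without the second. The number lower was 2 and 4 without the first and second S2P library, and 0 without either N20 library. No input library was used here.

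Members of every layer of the core were among the higher ones, 4 of 7 alpha genes and 3 of 4 beta genes without a catalytic site, and 4 of 6 cap ATPases. Of the cap's non-ATPase genes 3 of 11 were higher and 1 lower, and of the assembly chaperones 0 of 3 were higher. Over 16800 coding genes 31.6% were higher and 15.1% lower. PSMC1 had 55.6 and 55.2 CPM in S2P ChIP, against 17.6 and 17.4 CPM in N20 ChIP, a log2 fold change of 1.67 ± 0.16 (edgeR's quasi-likelihood test, Benjamini-Hochberg adjusted p = 2.82e-05). Its span overlaps NRDE2 on the other strand, and ChIP counts have no strand. PSMB4 (log2 1.30 ± 0.24) and PSMA3 (1.05 ± 0.19) followed, and PSMB5 (0.63 ± 0.22) and PSMB7 (0.87 ± 0.15) were also higher. PSMA3 and PSMB7 share 24.3% and 23.9% of their bins with other genes. PSMB8 (0.37 ± 0.26) and PSMB9 (-0.06 ± 0.27) were not called. The only gene lower was PSMD2, with 7.47 and 7.42 CPM in S2P ChIP, against 13.2 and 10.99 CPM in N20 ChIP (log2 -0.69 ± 0.23). It was not called when the first 1 kb was left out (-0.04). PSMD10 (-0.98 ± 0.37), PSMB6 (-0.74 ± 0.35) and PSMB1 (-0.51 ± 0.22) had the other low values and were not called. With the first 1 kb of each span left out, 23 of the 37 were higher and 0 lower, where 6903 of all 26463 genes then tested were higher and 6388 lower.

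PSMB10 had the highest value, 77.0 and 172 CPM in S2P ChIP, against 38.0 and 26.1 CPM in N20 ChIP (log2 1.96 ± 0.48). The S2P libraries disagreed more than 2-fold, and the log2 value was 1.28 without the second of them. The gene was not called without the second N20 library (1.71). Its ChIP level per length was also the highest of the 37 with either antibody, at 46.8 ± 22.9 in S2P and 17.3 ± 4.29 in N20 on the per-length scale (SD, n = 2). These counts did not peak at the gene's start. The fullest bin was centred 749 bp and 949 bp downstream of it in the S2P libraries, with 594 and 758 counts, and 949 bp downstream in both N20 libraries, with 82 and 102 counts. The opposite-strand TT-Seq counts were highest elsewhere, at 349 bp downstream with 204 and 208 counts, and were 8 and 4 at 949 bp. The ChIP counts carry no strand.

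**Figure D5:**
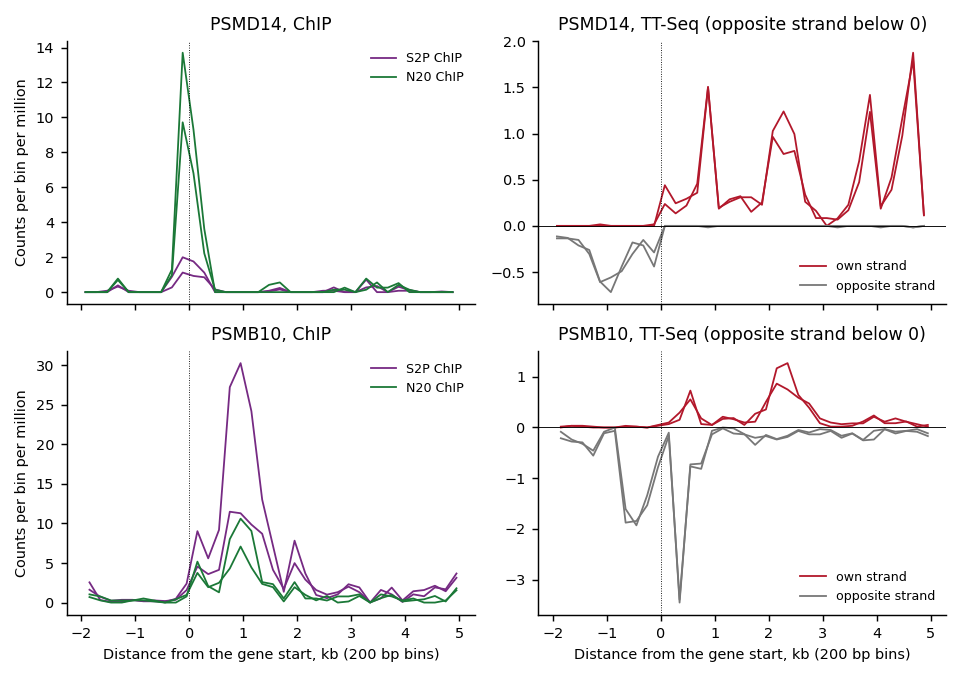
CPM per 200 bp bin against the distance from the gene start in kb, for PSMD14 above and PSMB10 below, with S2P and N20 ChIP at the left and TT-Seq by strand at the right, 1 line per library. N20 ChIP is highest next to the start in PSMD14 and about 949 bp downstream of it in PSMB10.

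The wider ubiquitin-proteasome pathway was described with 35 further genes, of which 34 passed the filter in RNA and PSMB11, the thymus-type beta subunit, had 0 counts in all 8 RNA libraries. With TT-Seq over Total RNA-Frag-Seq 9 were higher and 15 lower, where 33.2% of all genes tested were higher and 33.7% lower. The highest were POMP, the chaperone of core assembly (log2 0.95 ± 0.083), and ECPAS, a proteasome adaptor (0.62 ± 0.054), and the lowest was the polyubiquitin gene UBB (-2.08 ± 0.080), whose repeats are alike, so that its read count is uncertain. In 4sU-Seq against Total RNA-Seq 4 were higher and 17 lower, against 28.3% and 28% of all genes. ECPAS (0.24 ± 0.055) and the inhibitor gene PSMF1 (0.19 ± 0.064) were at the top, and PSMA8 at the bottom. PSMA8, a testis-type alpha subunit, had only 2 and 8 counts in 4sU-Seq and 13 and 16 in Total RNA-Seq. In TT-Seq against 4sU-Seq 14 were higher and 13 lower, against 28.8% and 28.9% of all genes. Values ran from RAD23B, a shuttle receptor (0.82 ± 0.055), and USP14, a cap-bound deubiquitinase (0.73 ± 0.058), to UBB (-1.96 ± 0.079).

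For Total RNA-Frag-Seq over Total RNA-Seq 6 of the pathway genes were higher and 8 lower, against 18% and 10.8% of all genes. The ligase UBE3C (0.34 ± 0.059) and ECPAS (0.26 ± 0.055) were at one end. The ubiquitin receptor ADRM1 (-0.39 ± 0.10) and PSMA8, with 1 and 3 counts in the first group, were at the other. In the interaction 10 were higher and 12 lower, against 18.4% and 23.2% of all genes. RAD23B (0.82 ± 0.078) and POMP (0.75 ± 0.12) led, with UBB (-1.72 ± 0.11) lowest. In S2P ChIP against N20 ChIP 11 of the 35 were higher and 6 lower. Of all genes 23.3% were higher and 20.2% lower, and of coding genes 31.6% and 15.1%. The assembly chaperone gene PSMG1 was highest (2.16 ± 0.53), and SEM1, a small cap subunit, lowest (-1.14 ± 0.16). NFE2L1, the factor named above, was itself lower in TT-Seq, relative to Total RNA-Frag-Seq (-1.42 ± 0.060) and lower in 4sU-Seq than in Total RNA-Seq (-1.03 ± 0.060), a gene chosen here after its values were seen.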

How the data were processed

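The submitters' processing notes name hg38 and the tools SAMtools, STAR 2.3.0 and Bowtie2 2.1.0, without saying which did what. The deposited values are whole counts: the authors counted fragments in 200 bp bins, per the deposited description, on each strand separately for RNA and on both together for ChIP. Every ChIP bin held an even count, whose origin was not tested. The handling of multiply mapped reads is not stated. Bins were summed by midpoint over RefSeq gene spans (GRCh38.p14). Strand came from the RefSeq promoter table or, for 2586 genes including PSMA7, PSMB1, PSMB6, PSMB7 and PSMD4, from an authors' transcriptional unit that covered at least 80% of the span and had 5 times the counts of the other strand. The 2 sources gave the same strand for 96.0% of 7317 coding genes. The 8451 genes without a strand were left out.

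Counts were filtered with filterByExpr, scaled by TMM (factors 0.940 to 1.07 for RNA, 0.807 to 1.20 for ChIP) and compared in edgeR 4.0.16 under R 4.3.3 (robust glmQLFit, glmQLFTest, Benjamini-Hochberg, threshold 0.05). The 8 RNA libraries shared 1 fit over 18521 genes and the 4 ChIP libraries another over 28204. The coefficients of biological variation were 0.0586 and 0.164. Tested on simulated data, changes of log2 1 were recovered in 81% of genes for TT-Seq over Total RNA-Frag-Seq and in 48% for S2P against N20 ChIP, and changes of 0.5 in 55% and 6%. Fold changes are log2 ± SE with 2 libraries against 2. A single-gene exact permutation test at this size cannot go below p = 0.333, so only tests across all genes are used.

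Named genes are the 4 highest and 4 lowest members of each comparison, PSMB5 to PSMB10, and the 2 highest and 2 lowest called genes of the wider pathway; the other genes named were chosen after their values were seen. Some genes that this rule names are not reported here. Members and lists were chosen with earlier results of these data known. Alternatives were another normalization or test (DESeq2 1.42.0), filter, span or feature, leaving out each library, and a replicate block. Replicate numbers were not taken to pair libraries. The deposited exon and intron counts were not used, because their row names could not be matched to the units, and intronic share and protein sequences were not analysed here.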

Additional observations from a re-analysis of the deposited data

Results flagged for a closer look

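For 19 of the 37 genes the effect of 4sU purification differed between sheared and unsheared RNA, by the interaction term of edgeR's quasi-likelihood test at a Benjamini-Hochberg adjusted p under 0.05. Of all 18521 genes tested, 41.6% were called in the same test. Values are log2, the effect on sheared RNA minus that on unsheared RNA. It was larger on sheared RNA for PSMC6 (0.89), PSMA6 (0.84), PSMC1 (0.80), PSMA3 (0.74), PSMA5 (0.60), PSMD14 (0.57), PSMD12 (0.51), PSMD1 (0.43), PSMB2 (0.33) and PSMC2 (0.30). It was smaller or more negative on sheared RNA for PSMB4 (-1.10), PSMB6 (-1.07), PSMB10 (-1.01), PSMC5 (-0.86), PSMB5 (-0.76), PSMD10 (-0.56), PSMC4 (-0.41), PSMD8 (-0.34) and PSMA1 (-0.29). Of these, PSMA1 was not called when counted from its RefSeq promoter start (0.21). Span length moved with the values, with Spearman's rho 0.756 over the 37 genes against 0.221 over coding genes, and its part was not tested.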

How the results depend on the processing

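Alternatives numbered 15 per comparison and 18 for the interaction. Of the values for named genes under alternatives, 979 kept their side of the threshold, 28 passed it and 39 no longer did. Direction was compared only for genes called in the main fit or in the alternative, and 3 such values changed it. Those were PSMB7 for TT-Seq over Total RNA-Frag-Seq with transcriptional units (-0.073), and PSMA1 counted from its promoter start in 4sU-Seq against Total RNA-Seq (-0.19) and in Total RNA-Frag-Seq over Total RNA-Seq (-0.014).

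Counts of members moved as follows. With the authors' transcriptional units, which matched 24 members, the counts were 4 higher for TT-Seq over Total RNA-Frag-Seq, 2 higher in 4sU-Seq against Total RNA-Seq, 6 higher in TT-Seq against 4sU-Seq, 2 lower in Total RNA-Frag-Seq over Total RNA-Seq, 5 higher and 5 lower in the interaction and 10 higher in S2P against N20 ChIP. Fewer members enter that test. In 4sU-Seq against Total RNA-Seq, 2 were higher with DESeq2 size factors, 2 with DESeq2's Wald test, 3 with only the libraries compared and 8 with coding genes only. In Total RNA-Frag-Seq over Total RNA-Seq, 0 were higher and 15 lower without TMM, and 8 lower with DESeq2's Wald test, 8 with no filter and 8 with the replicate block. In S2P against N20 ChIP, 7 were higher and 8 lower without TMM, and 2 lower with DESeq2's Wald test, 2 with the replicate block, 2 without bins shared with another gene, 4 with coding genes only and 0 without the first 1 kb. The cause of these shifts was not tested. Transcriptional units aside, TT-Seq over Total RNA-Frag-Seq, TT-Seq against 4sU-Seq and the interaction kept both counts within 1.5 times in every alternative run.

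Leaving out 1 library gave 12 to 14 higher and 17 to 20 lower for TT-Seq over Total RNA-Frag-Seq, 2 to 6 and 16 to 19 in 4sU-Seq against Total RNA-Seq, 10 to 13 and 11 to 13 in TT-Seq against 4sU-Seq, 1 to 4 and 2 to 12 in Total RNA-Frag-Seq over Total RNA-Seq, 9 to 12 and 6 to 10 in the interaction, and 8 to 21 and 0 to 4 in S2P against N20 ChIP. The lone library is then assumed to vary like the other groups. Deviations of same-numbered libraries correlated at 0.196 to 0.262 in 5 of the 6 pairs of RNA groups, at -0.18 between 4sU-Seq and Total RNA-Frag-Seq, and at -0.006 between the ChIP groups. No label ties the numbers to a shared batch, and the replicate block is given as an alternative only.

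Per total of all bins the members' median level was 2.45 in TT-Seq, 2.63 in 4sU-Seq and 3.48 in Total RNA-Seq, and without shared bins 4.35 in Total RNA-Seq. With a window of 500 bp before to 1000 bp after the start, the start density ratio was 10.5 in N20 ChIP and 0.73 in TT-Seq, against 21.6 and 0.61 in the main window. Between the outermost of 3 equal stretches of the span the 5' to 3' balance was -0.30 in TT-Seq, -1.11 in Total RNA-Frag-Seq and -1.17 in Total RNA-Seq. Depth limits PSMB8 and PSMB9 in RNA, and PSMB6, PSMD6 and PSMD10 in the first N20 library, where their bodies held under 20 counts. The planned intronic share was not run, for want of exon coordinates here.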
